A study of Mus musculus with 24 samples.

Results

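Sphingosine-1-phosphate (S1P) was given for 24 h to the basal, brain-facing side of cultured brain endothelium and compared with vehicle, and the response was read from poly(A) RNA. The comparison used 8 of the series' 24 libraries, 4 with basal S1P and 4 with vehicle, and 12249 of 18091 genes, those with a mean of at least 10 normalized counts over the 20 wild-type libraries. The cells were MBMECs, primary mouse brain microvascular endothelial cells from cortex and midbrain of mice labelled C57B/6J, with brains of 12 mice pooled per replicate. Puromycin was used against other cell types. Confluent cells on transwell inserts, which give separate access to the apical (blood-facing) and basal sides, received medium with fatty-acid-free albumin and 50 nM S1P on the basal side, or the vehicle medium. The other wild-type groups, also 4 libraries each at 24 h, received 50 nM S1P apically or 500 nM CYM50260, an agonist of the receptor S1P4, apically or basally. They entered the fits to estimate the spread and, in the second fit below, also the differences between replicate numbers. The remaining 4 libraries came from vehicle-treated cells of mice labelled S1P4 KO/KO and were not used here. These are cultures of enriched endothelium, without the pericyte and astrocyte layers or the flow of a vessel. RNA of pericyte, smooth muscle and fibroblast markers was still present, as described below. For the mice neither age nor sex is given in the sources used here.

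S1P is a lipid mediator of blood and lymph that acts through G-protein-coupled receptors. S1pr1 couples to Gi and Rac and tightens endothelial junctions, whereas S1pr2 and S1pr3 can also couple to G12/13, which drives contraction. In brain endothelium this signalling bears on the blood-brain barrier, and in the submitters' description basal S1P is the treatment that opens the barrier, while the other 3 tighten it.

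Normalized totals lay between 4.49 and 4.72 M in the 20 wild-type libraries, and 1009 to 1952 genes per library were at 0. The endothelial identity of the cells was plain from their markers: the 26 endothelial marker genes had sums of 33558 to 37206 in the vehicle libraries and of 34057 to 37775 under basal S1P, and Cdh5, the adhesion molecule VE-cadherin, lay between 2560 and 3191 in the 8 libraries. Markers of other vessel cells differed by replicate number more than by treatment. The pericyte sums cover 10 markers, of which 8 were tested. They were 2856, 2259, 1272 and 323 in vehicle replicates 1 to 4 and 2320, 1601, 1069 and 318 with basal S1P. The fibroblast and meningeal sums cover 8 markers, of which 6 were tested. They were 1175, 1293, 376 and 359 in vehicle and 1089, 866, 304 and 332 with basal S1P. In both lists the sum of the basal S1P library was the lower one at each number. Of the tested members limma called 0 in both fits below, with 2 pericyte and 1 fibroblast markers at an unadjusted p under 0.05 in the second. The part of these cells in the results was not tested, and in such bulk RNA fewer cells of a type and less RNA per cell cannot be told apart.

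Libraries of one replicate number resembled each other, with exceptions that bear on every result below. Xist, the non-coding RNA of the inactive X chromosome in female cells, was at 1, 2251, 1063 and 190 in vehicle replicates 1 to 4 and at 0, 552, 1432 and 225 with basal S1P. Replicates 1, 3 and 4 of basal S1P thus lay near the vehicle library of their number, and replicate 2 did not. S1P apical replicates 3 and 4 were at 525 and 1417. These 3 libraries were more than 2-fold from the vehicle library of their number. Their log2 ratios, with 1 added to each value, were -2.026 for basal S1P replicate 2, -1.016 for apical replicate 3, only just past 2-fold, and 2.892 for apical replicate 4. The deviations from the group means, correlated across genes between vehicle and basal S1P libraries of one number, had r = 0.805, 0.0291, 0.583 and 0.678 for numbers 1 to 4, a description over genes that share libraries. Between vehicle and apical S1P r was 0.664, 0.612, 0.375 and 0.396. Apical replicates 3 and 4 thus stood apart by Xist but, unlike basal replicate 2, passed the threshold of 0.1 set for r. Both correlated best with vehicle replicate 3.

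**Figure D1:**
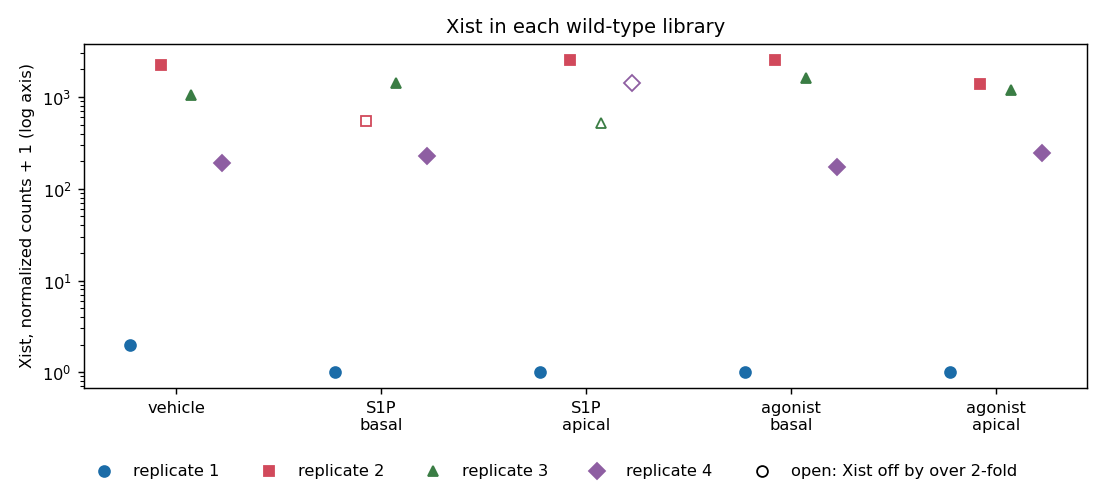
Xist in normalized counts plus 1 (log axis) in each wild-type library by group, with the symbol giving the replicate number and open symbols the libraries more than 2-fold from the vehicle library of their number. Basal S1P replicate 2 (552) lies far from vehicle replicate 2 (2251), while replicates 1, 3 and 4 lie near their vehicle libraries.

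2 fits are therefore given. The first compared group means over all 20 wild-type libraries. The second, called the matched fit, left out the 3 libraries that stood apart by Xist and took the replicate number as a block. Vehicle and basal S1P were thus compared with the differences between numbers taken out. Libraries of the other groups helped to set these differences, and vehicle replicate 2 entered through them. In those 17 libraries the 27 same-numbered pairs from groups that share at least 2 numbers had r from 0.239 to 0.823, and the vehicle and basal S1P pairs 0.823, 0.679 and 0.727. Apical S1P shares only numbers 1 and 2 with vehicle and the agonist groups, so its r (0.344, 0.239 and 0.33) is by construction the same for both numbers. Basal and apical S1P share only number 1 there, so their pairing was not checked. The matched fit was chosen after the data and the calls of several blocked fits had been seen. Its count depended on the libraries used: fits with such a block called from 47 to 518 genes, and fewer than 47 on only the 8 libraries compared. For the contrast with vehicle it rests on 3 basal S1P libraries. Apical S1P has 2 libraries in it, numbers 1 and 2, so the matched values against apical S1P below compare 3 with 2 libraries and mostly across numbers, through the other groups of the fit. Since it is not stated which libraries came from separate pools of mice, the p-values of both fits cover the spread between these libraries and nothing wider. Where a treated library is said to be lower or higher at every number, number 2 is included, although its vehicle and basal S1P libraries did not pair.

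In the fit of group means basal S1P lowered 3 genes and raised none past an adjusted p of 0.05 (3 of 12249 genes, 0.0245%, limma; 640 genes had an unadjusted p under 0.05). Cpm, a membrane-bound carboxypeptidase that trims basic residues from peptides such as kinins, held 554, 562, 545 and 614 normalized counts in vehicle replicates 1 to 4 and 356, 381, 363 and 434 with basal S1P. Atoh8, a basic helix-loop-helix transcription factor, held 301, 236, 248 and 232 in vehicle and 140, 128, 137 and 109 with basal S1P. Ackr4, a scavenging receptor that takes up CCL19 and CCL21, held 152, 153, 92 and 129 in vehicle and 52, 61, 38 and 55 with basal S1P. For all 3 genes every basal S1P library lay below every vehicle library, replicate 2 included. Of all tested genes, 132 (1.08%) lay below vehicle in this way and 126 (1.03%) above.

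The log2 change, on the log2(value + 1) scale with its standard error, was -0.57 ± 0.07 for Cpm (limma adjusted p = 0.00191), -0.98 ± 0.13 for Atoh8 (adjusted p = 0.00325) and -1.33 ± 0.21 for Ackr4 (adjusted p = 0.0225). In the matched fit the changes were nearly as large, at -0.55 ± 0.05, -0.97 ± 0.09 and -1.36 ± 0.10 (adjusted p = 1.62e-05, 1.49e-05 and 8.86e-07). These 3 genes were also lower with basal than with apical S1P in the matched fit (adjusted p = 0.00788 for Cpm, 0.000244 for Atoh8 and 8.33e-06 for Ackr4). On the 8 libraries alone 0 genes were called, and Ackr4 passed in 12 of 19 alternatives to the fit of group means.

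**Figure D2:**
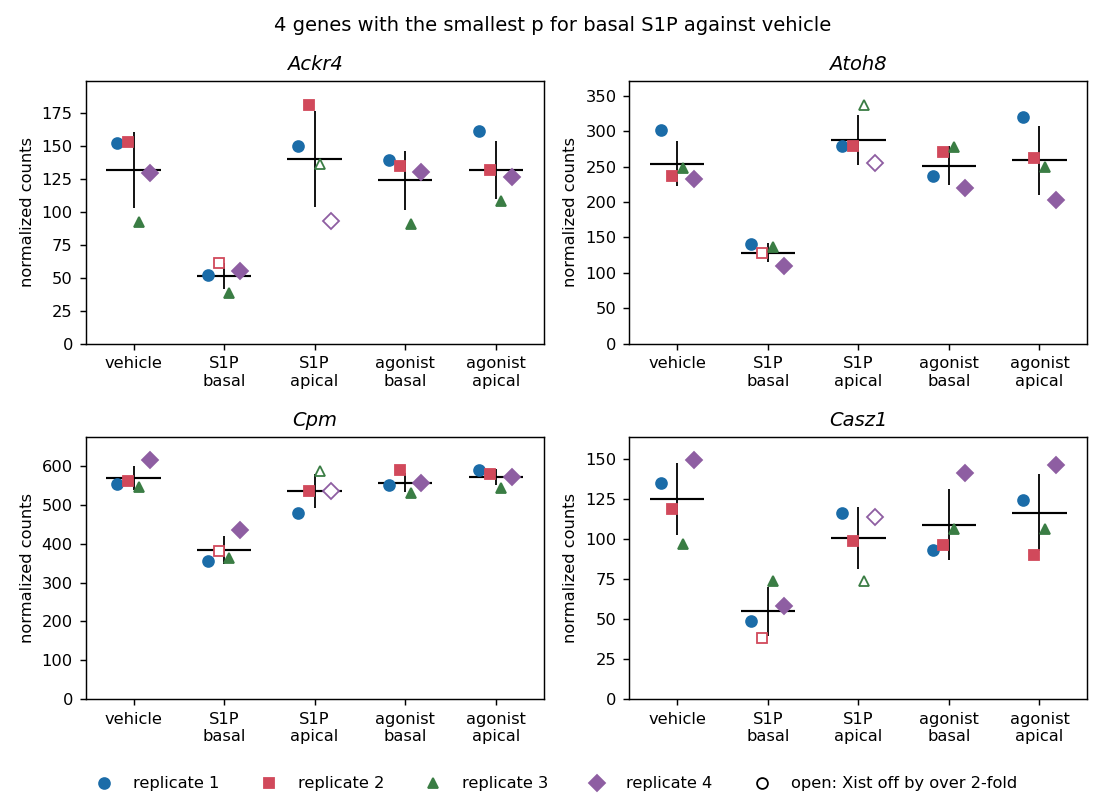
Normalized counts of Ackr4, Atoh8, Cpm and Casz1 in each library of the 5 wild-type groups, with horizontal lines at the group mean, vertical lines of 1 SD either way (n = 4) and open symbols for the libraries that stood apart by Xist. The 4 basal S1P libraries of each gene lie below the 4 vehicle libraries.

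Casz1, a zinc finger transcription factor needed for vessel formation, came next by p. It held 135, 119, 97 and 149 in vehicle and 49, 38, 74 and 58 with basal S1P, with no overlap, and its adjusted p was 0.0523 in the fit of group means and 0.000652 in the matched fit (log2 change -1.11 ± 0.15). Of the 15 genes that followed the 3 calls by p, 13 were called in the matched fit, which reuses 17 of the 20 libraries. Lower among them were the kinase gene Nuak1 (-0.31), the chondroitin sulfotransferase gene Chst15 (-0.36), the magnesium-permeable channel gene Trpm6 (-0.32), the integrin gene Itga8 (-0.40), Islr2 (-1.29), Reck (-0.27), Ablim3 (-0.43) and Rfx5 (-0.29), whose product binds promoters of MHC class II genes. Higher were Ano1 (0.55), Nup210 (0.77), Nt5dc2 (0.34) and the transcript K230015D01Rik (0.80). Rffl (-0.39, adjusted p = 0.0512) and Particl (-0.76, adjusted p = 0.0580) did not pass.

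Ano1, a calcium-activated chloride channel, had the smallest p of the genes called higher in the matched fit. Its level was 362, 361, 451 and 393 in vehicle and 506, 481, 650 and 625 with basal S1P, so that the lowest treated library exceeded the highest vehicle library (matched log2 change 0.55 ± 0.06, adjusted p = 5.22e-05). Apical S1P gave 354, 351, 373 and 442, within the vehicle range or just below it, and basal and apical S1P differed in the matched fit (adjusted p = 0.00165).

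In the matched fit 322 genes passed (2.63% of 12249; 1833 had an unadjusted p under 0.05), of which 188 were lower (1.53%) and 134 higher (1.09%) with basal S1P. Most of these changes were small. The median log2 change was -0.40 for the lower genes and 0.28 for the higher ones, 231 genes changed by less than 0.5, and a change of at least 1 was reached by 15 lower and 4 higher genes. The same fit called 0 genes for apical agonist, basal agonist and apical S1P against vehicle (1607, 510 and 358 genes at an unadjusted p under 0.05). Apical S1P has 2 libraries there, basal S1P 3 and each agonist group 4, so these counts are not on a par. All 4 comparisons share the vehicle libraries. Tested directly, basal S1P differed from apical S1P in 151 genes (1.23%), with 67 higher (0.547%) and 84 lower (0.686%), over 3 and 2 libraries that share only number 1. It differed from the basal agonist in 205 genes (1.67%), with 73 higher (0.596%) and 132 lower (1.08%). Of the 322 genes, 126 were also called in the same direction against apical S1P and 163 against the basal agonist. These comparisons reuse the same 3 basal S1P libraries, so the overlap is in part built in and is no separate support. The same holds for each gene that is said to differ from apical S1P or the basal agonist as well.

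The count fell to 112 without S1P basal replicate 4, to 179 without S1P basal replicate 3 and to 200 without vehicle replicate 3. Without the block the same 17 libraries gave 3 calls. Of the called genes named here, Spns2, Irf1, H2-T23, Nr2f2, Lpar6, Slc7a5, Tgfbr3, Itga1, Plxna4, Psat1, Asns, Pdlim7 and Shroom3 passed in 5 to 8 of 18 alternatives to the matched fit. Values below are from the matched fit, in which adjusted p-values ran over all 12249 genes. Each count of calls in a gene list below is to be read beside the share over all tested genes, 1.53% lower and 1.09% higher. Of the genes first named below, none passed in the fit of group means, where their adjusted p was 0.649 or more.

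**Figure D3:**
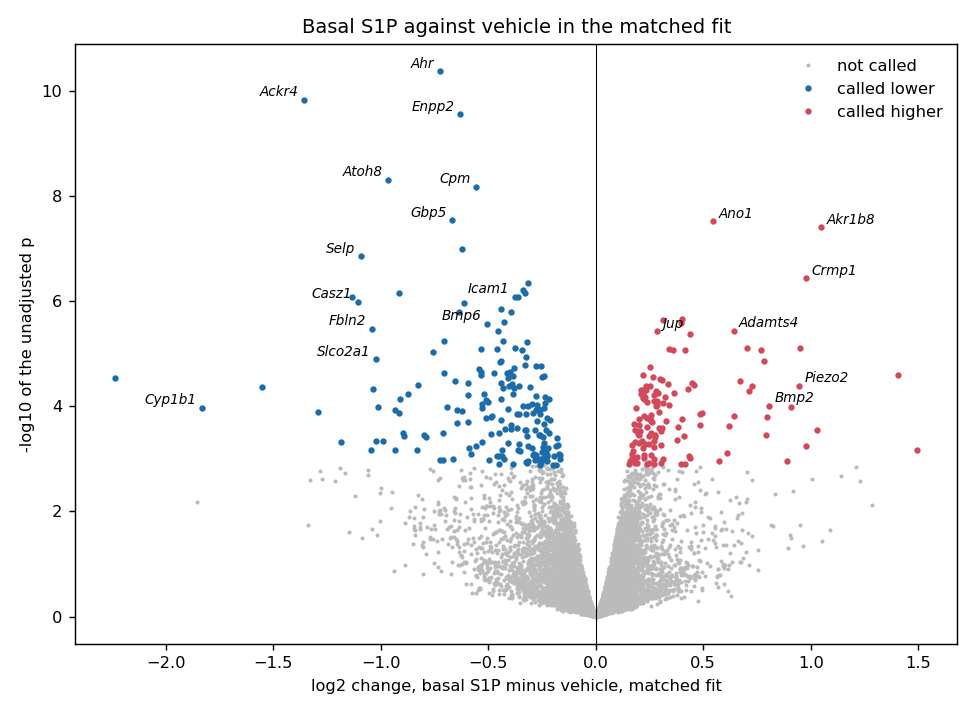
Log2 change of basal S1P against vehicle (x axis) and -log10 of the unadjusted p (y axis) for 12249 genes in the matched fit, with called genes in blue (188 lower) and red (134 higher). Ahr, Ackr4 and Enpp2 have the smallest p, and all 3 are lower.

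5 genes of the aryl hydrocarbon receptor pathway, the receptor's own among them, fell with basal S1P. This ligand-activated transcription factor induces cytochrome P450 enzymes of family 1 and, as feedback, its own repressor Ahrr and the ADP-ribosyltransferase Tiparp. Of 12 tested members of the list 5 were called lower and 0 higher, and 10 had lower means over all 4 libraries. Over all tested genes 1.53% were called lower and 1.09% higher, and 50.0% had lower means. The list's median log2 change was -0.15, beside 0.01 over all tested genes. The receptor gene Ahr itself held 544, 428, 340 and 491 in vehicle and 338, 216, 194 and 298 with basal S1P, and the highest treated library lay just below the lowest vehicle library (-0.72 ± 0.05, adjusted p = 5.1e-07). Ahr was also lower than with apical S1P (adjusted p = 1.52e-05) and than with the basal agonist (adjusted p = 2.93e-06).

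The feedback and target genes followed at their own levels. Ahrr held 143, 83, 85 and 85 in vehicle and 80, 70, 40 and 44 with basal S1P, without overlap (-0.91 ± 0.12, adjusted p = 0.000572). Cyp1a1, the classical inducible P450 of the pathway, held 423, 186, 387 and 483 in vehicle and 138, 106, 267 and 301 with basal S1P (-0.93 ± 0.19, adjusted p = 0.00978). Its groups overlapped, because vehicle replicate 2 was low, but at each number the treated library was the lower one. Cyp1b1 held 150, 14, 25 and 71 in vehicle and 30, 13, 5 and 28 with basal S1P (-1.83 ± 0.37, adjusted p = 0.00929). In replicate 2, which the matched fit left out, Cyp1b1 hardly differed. Tiparp was at -0.44 ± 0.09 (adjusted p = 0.0128). Against apical S1P the differences of Ahrr, Cyp1a1, Cyp1b1 and Tiparp did not pass (adjusted p = 0.0515, 0.217, 0.290 and 0.925), so a difference between the sides was called for Ahr alone among these 5 genes.

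The promoter window of Ahrr is shown because its repressor product is the pathway's feedback arm. The 300 bases lie at chr13:74292282-74292581 on the minus strand (RefSeq, GRCm38.p6) and run from 250 bases before the start to 50 after it. Capitals mark the core of the response element, TNGCGTG, searched on both strands. This core was found in 5.07% of 32851 promoter windows and in 8.0% of those of tested genes, and in 1 of the 10 list members with a window, which is this one.
Ahrr: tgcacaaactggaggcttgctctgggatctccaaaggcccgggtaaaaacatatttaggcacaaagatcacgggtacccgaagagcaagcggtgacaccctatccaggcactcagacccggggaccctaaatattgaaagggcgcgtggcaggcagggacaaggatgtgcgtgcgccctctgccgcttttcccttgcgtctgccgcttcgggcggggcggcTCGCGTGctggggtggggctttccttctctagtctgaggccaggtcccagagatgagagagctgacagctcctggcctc

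**Figure D4:**
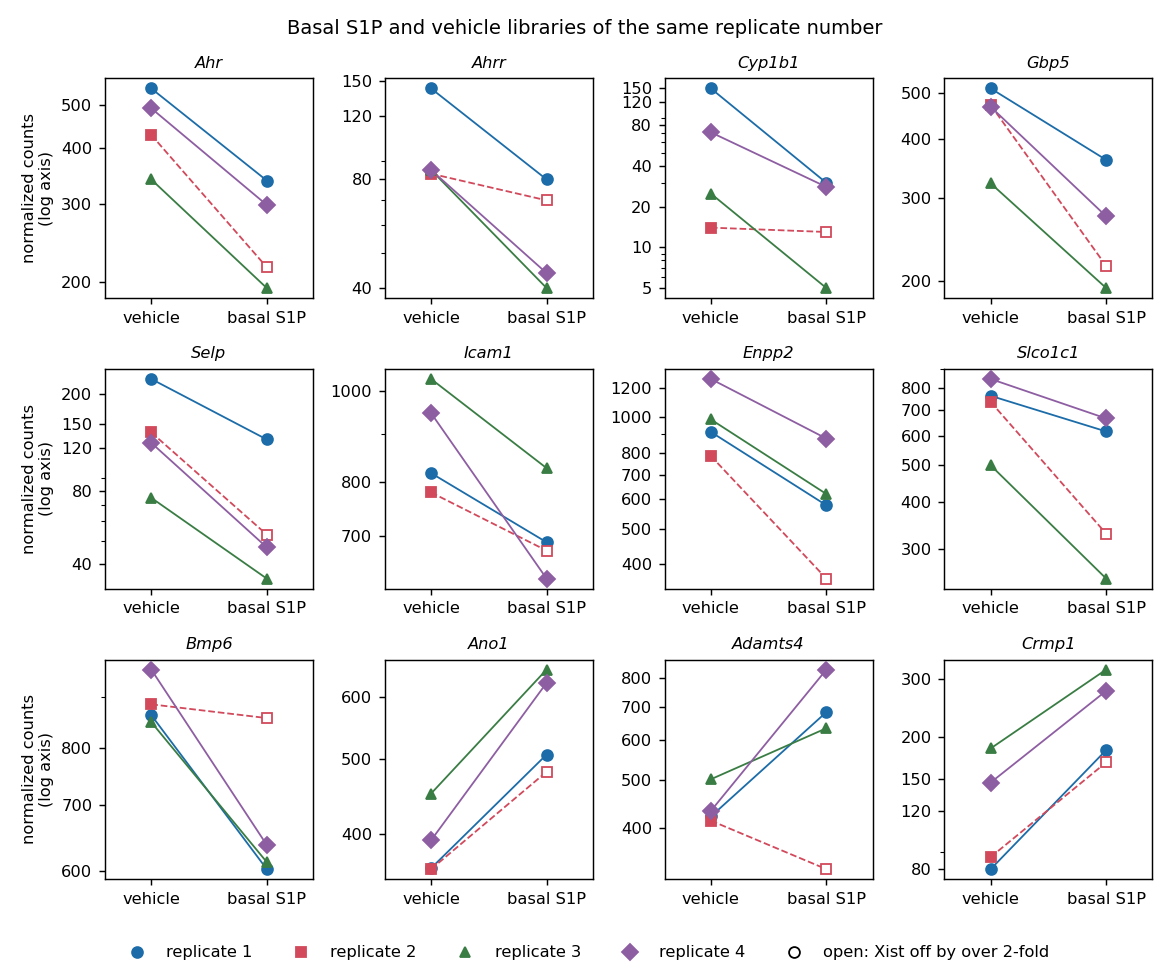
Normalized counts (log axes) of 12 genes in vehicle and basal S1P libraries, joined by replicate number, with the dashed line and open symbol for basal S1P replicate 2. The lines of numbers 1, 3 and 4 fall for the first 9 genes and rise for Ano1, Adamts4 and Crmp1, while replicate 2 of Adamts4 goes the other way.

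4 interferon-inducible GTPase genes fell with basal S1P. Guanylate-binding proteins are large GTPases that endothelium makes in response to interferon-gamma and that act against intracellular pathogens. Of 16 tested members of the list 4 were called lower and 0 higher, and the median log2 change was -0.24. All 16 had lower means, beside 50.0% of all tested genes. After quantile normalization 14 of the 16 had lower means, beside 5721 of all 12249 tested genes. Gbp5 held 512, 472, 322 and 468 in vehicle and 361, 215, 193 and 274 with basal S1P (-0.67 ± 0.07, adjusted p = 5.22e-05). Gbp3 held 525, 529, 443 and 574 in vehicle and 376, 339, 348 and 454 with basal S1P (-0.39 ± 0.06, adjusted p = 0.00084). At every number the treated library was the lower one, although the groups overlapped in both genes. Gbp2 was at -0.31 ± 0.04 (adjusted p = 0.000461) and Iigp1, an immunity-related GTPase, at -0.47 ± 0.08 (adjusted p = 0.00449). Gbp5, Gbp3 and Gbp2 were also lower than with apical S1P (adjusted p = 0.000415, 0.00881 and 0.00179). These genes belong to families of close copies, so reads may have been split between members.

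In the wider interferon list 40 of 43 tested members had lower means, beside 50.0% of all tested genes. Only Irf1, a transcription factor induced by interferon-gamma, was called (-0.22 ± 0.05, adjusted p = 0.0301), a share of calls near the 2.63% over all tested genes. Irf1 held 537, 489, 519 and 494 in vehicle and 465, 398, 448 and 423 with basal S1P, with no overlap. The list's median was -0.14 in the matched fit and -0.24 in the fit of group means. Among 22 genes of MHC class I presentation 18 had lower means and H2-T23 was called lower (-0.35 ± 0.09, adjusted p = 0.0340).

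Windows of the 3 called Gbp genes are shown, since they moved together and lie within one cluster on chromosome 3. They are on the plus strand, Gbp2 at chr3:142620413-142620712, Gbp3 at chr3:142559794-142560093 and Gbp5 at chr3:142496684-142496983 (RefSeq, GRCm38.p6). Capitals mark the interferon-stimulated response element, 2 copies of GAAA with any 2 bases between them, searched on both strands and found here on the strand opposite to the one printed. In Gbp3 2 matches overlap. The element was in 3.44% of all windows and 3.02% of those of tested genes. Counted per gene in any of its windows, it was in 9 of the 10 list members with a window. Gbp3 has 2 windows, and the 1 with the element is shown. Gbp7, Igtp, Irgm1, Irgm2, Tgtp1 and Tgtp2, which were not called, hold the element too, and Iigp1, which was called, has no window.
Gbp2: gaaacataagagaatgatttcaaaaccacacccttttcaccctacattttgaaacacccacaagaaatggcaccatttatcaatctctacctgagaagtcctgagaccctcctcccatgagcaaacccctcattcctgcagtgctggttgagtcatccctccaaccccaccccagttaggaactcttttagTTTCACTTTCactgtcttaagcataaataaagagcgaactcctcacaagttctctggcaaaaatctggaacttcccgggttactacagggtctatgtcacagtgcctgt
Gbp3: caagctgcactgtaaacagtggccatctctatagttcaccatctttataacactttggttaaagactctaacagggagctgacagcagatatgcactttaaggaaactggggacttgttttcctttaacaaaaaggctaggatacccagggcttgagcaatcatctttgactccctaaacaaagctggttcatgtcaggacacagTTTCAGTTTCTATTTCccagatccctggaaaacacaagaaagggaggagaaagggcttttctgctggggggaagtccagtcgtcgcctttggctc
Gbp5: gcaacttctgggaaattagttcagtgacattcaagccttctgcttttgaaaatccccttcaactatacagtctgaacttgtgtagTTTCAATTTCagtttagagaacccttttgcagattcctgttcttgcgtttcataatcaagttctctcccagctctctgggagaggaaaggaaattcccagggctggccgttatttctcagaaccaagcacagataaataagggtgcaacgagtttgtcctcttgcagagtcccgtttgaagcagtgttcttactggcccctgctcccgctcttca

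Adhesion molecules for leukocytes split. Selp, which encodes P-selectin of the endothelial storage granules, held 230, 139, 75 and 126 in vehicle and 130, 53, 35 and 47 with basal S1P (-1.09 ± 0.13, adjusted p = 0.000171). Icam1, the ligand of leukocyte integrins, held 818, 780, 1031 and 948 in vehicle and 690, 676, 828 and 631 with basal S1P (-0.38 ± 0.05, adjusted p = 0.000573). For both genes the treated library was the lower one at all 4 numbers although the groups overlapped, and both were lower than with apical S1P (adjusted p = 0.00179 and 0.00467). Mcam, an adhesion molecule of endothelial junctions, went the other way, from 1483, 1515, 1467 and 1720 to 1708, 1863, 1795 and 1951 (0.22 ± 0.04, adjusted p = 0.00754). Of the list's 22 tested members these 3 were called, 2 lower and 1 higher.

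Genes of the venous and activated endothelial state had 6 of 15 members called lower and 0 higher, with a median of -0.26. Besides Selp and Icam1 they included the acute-phase lipocalin Lcn2 (-0.44), the protease Ctsc (-0.32) and Nr2f2, the transcription factor of venous identity (-0.26). Il6st, the signalling chain gp130 shared by receptors of interleukin-6 and related cytokines, held 2862, 2746, 2602 and 2952 in vehicle and 2424, 2367, 2260 and 2468 with basal S1P, without overlap (-0.24 ± 0.04, adjusted p = 0.00466), and the oncostatin M receptor gene Osmr was at -0.44 ± 0.07 (adjusted p = 0.00333). With Ackr4 these made up the 3 lower calls among 32 chemokine, cytokine and receptor genes, which held 0 higher calls. In the NF-kB list 2 of 28 genes were called lower, the inhibitor-of-apoptosis genes Birc2 (-0.27) and Birc3 (-0.33). Csf2rb2, a cytokine receptor chain with a near-identical copy in Csf2rb, held 359, 307, 207 and 295 in vehicle and 166, 48, 73 and 183 with basal S1P, without overlap (-1.13 ± 0.15, adjusted p = 0.000573).

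The S1P receptors themselves did not pass in either fit. S1pr1 held 1212, 1282, 1602 and 1675 in vehicle and 1278, 1627, 1577 and 1673 with basal S1P, a log2 change of 0.02 ± 0.05. S1pr2, at 75, 63, 101 and 60 against 72, 77, 78 and 71, had a log2 change of -0.08 ± 0.12. S1pr4 was at -0.16 ± 0.10. S1pr3 held 79, 49, 30 and 9 in vehicle and 51, 26, 21 and 5 with basal S1P (-0.49 ± 0.35), lower at every number. S1pr5 was not analysed here. None of the 4 tested receptors had an unadjusted p under 0.05 in limma, all had overlapping groups, and the signs of S1pr1, S1pr2 and S1pr4 depended on the scaling or the libraries used.

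Genes that make, move or break down S1P included 3 lower calls among 21 tested and 0 higher. Acer2, a Golgi ceramidase that releases sphingosine, the precursor of S1P, held 1012, 900, 652 and 905 in vehicle and 698, 573, 389 and 622 with basal S1P (-0.63 ± 0.09, adjusted p = 0.00084), and it was also lower than with apical S1P (adjusted p = 0.00474). The lipid exporter gene Abca1 was at -0.36 ± 0.07 (adjusted p = 0.0107). Spns2, the S1P exporter of endothelium, held 870, 863, 831 and 853 in vehicle and 755, 1094, 689 and 699 with basal S1P (-0.25 ± 0.06, adjusted p = 0.0343). Basal S1P replicate 2 was the highest of these 8 values, and Spns2 passed in 7 of 18 alternatives to the matched fit. The lyase gene Sgpl1 did not pass (-0.06 ± 0.05).

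Enpp2, which encodes autotaxin, the secreted enzyme that makes the related lipid lysophosphatidic acid, held 913, 786, 987 and 1270 in vehicle and 578, 366, 620 and 876 with basal S1P (-0.63 ± 0.05, adjusted p = 1.13e-06). The treated library was lower at every number, and Enpp2 was also lower than with apical S1P (adjusted p = 8.33e-06) and than with the basal agonist (adjusted p = 2.93e-06). The lysophosphatidic acid receptor gene Lpar6 was at -0.18 ± 0.05 (adjusted p = 0.0497), and it passed in 5 of 18 alternatives. These were the 2 calls among 6 tested genes of that pathway.

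Of 30 tested solute carriers of the blood-brain barrier 5 were called lower and 2 higher, and 4 of the 5 lower ones were organic anion transporters. Slco1c1, which carries thyroxine, held 765, 737, 500 and 848 in vehicle and 615, 329, 250 and 666 with basal S1P (-0.60 ± 0.11, adjusted p = 0.00567). The prostaglandin transporter gene Slco2a1 held 256, 154, 73 and 145 in vehicle and 135, 60, 31 and 82 with basal S1P (-1.02 ± 0.17, adjusted p = 0.00314). Both were lower at all 4 numbers. Slco1a4 (-0.38), Slco2b1 (-0.38) and the thiamine transporter gene Slc19a3 (-0.59) completed the lower calls. The amino acid transporter genes Slc38a3 (0.38) and Slc7a5 (0.20) were the higher ones. The glucose transporter gene Slc2a1 did not pass (0.01 ± 0.05), nor did Abcb1a, the efflux pump P-glycoprotein (-0.06 ± 0.04). Among 15 ABC transporters, Abca1 and Abcc4 (-0.22) were called lower.

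Bone morphogenetic protein (BMP) signalling genes changed in both directions, with 5 lower and 2 higher of 36. Bmp6, a BMP ligand made by endothelium, held 863, 885, 849 and 960 in vehicle and 602, 857, 612 and 637 with basal S1P (-0.51 ± 0.08, adjusted p = 0.00117). Replicate 2 stood apart, at a level within the vehicle range. Bmp2, another ligand, was at 214, 276, 379 and 349 in vehicle and at 316, 221, 655 and 726 with basal S1P (0.81 ± 0.16, adjusted p = 0.00903), and again replicate 2 went the other way. Id2, an inhibitor of helix-loop-helix factors, held 206, 228, 128 and 174 in vehicle and 146, 113, 88 and 94 with basal S1P (-0.71 ± 0.11, adjusted p = 0.00201). Tmem100 (-0.90), an endothelial gene induced by BMP9, the co-receptor gene Tgfbr3 (-0.23) and Atoh8 were the other lower calls, and Pmepa1 (0.36), a feedback inhibitor of TGF-beta signalling, the other higher one. The common BMP targets Id1 (-0.03 ± 0.07), Id3 (-0.12 ± 0.06) and Smad6 (-0.13 ± 0.08) did not pass.

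No tight junction gene was called by limma. In the list of 21, with 4 genes at an unadjusted p under 0.05, the log2 changes ran from -0.36 to 0.24 with a median of -0.01. Cldn5, the main claudin of the barrier, held 799, 823, 867 and 984 in vehicle and 799, 970, 959 and 959 with basal S1P (0.03 ± 0.05). Tjp1, the scaffold ZO-1, was at -0.01 ± 0.05 and Ocln, occludin, at -0.09 ± 0.05. The signs of Cldn5, Tjp1 and Ocln turned in some alternatives, all near 0. Among 22 adherens and desmosomal genes Jup, which encodes plakoglobin, was called higher. It held 1185, 1233, 1333 and 1525 in vehicle and 1490, 1572, 1609 and 1860 with basal S1P, higher at every number (0.28 ± 0.04, adjusted p = 0.00141). Cdh5 did not pass (0.05 ± 0.06).

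In the list of 33 actin and adhesion targets of MRTF and SRF, factors that respond to actin assembly, 30 had higher means, beside 50.0% of all tested genes. Pdlim7 was the only call, higher (0.17 ± 0.04, adjusted p = 0.0419), a share near the 2.63% over all tested genes. The list's median was 0.08. The median was 0.13 in the fit of group means, and 24 of 33 had higher means without basal S1P replicate 2.

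Matrix and adhesion genes changed both ways. Adamts4, an aggrecan- and versican-cleaving protease, held 422, 414, 501 and 433 in vehicle and 683, 331, 634 and 831 with basal S1P (0.64 ± 0.10, adjusted p = 0.00141), with replicate 2 below every vehicle library and the 3 others above. Its relative Adamts9 was at 0.36 ± 0.07 (adjusted p = 0.00659). Among the 27 proteases and inhibitors the lower calls were Cpm and Reck, a membrane-anchored inhibitor of matrix metalloproteinases that also serves Wnt7 signalling at the barrier. Tnc, the matrix glycoprotein tenascin C, held 1638, 1730, 1972 and 1851 in vehicle and 1978, 2603, 2684 and 2570 with basal S1P, and did not overlap (0.44 ± 0.07, adjusted p = 0.00153). Fbln2, fibulin 2, held 889, 863, 414 and 641 in vehicle and 508, 277, 169 and 349 with basal S1P (-1.04 ± 0.16, adjusted p = 0.00141). With Nid2 (0.18) these were the calls among 35 basement membrane and matrix genes. Of 15 integrins Itgb3 was called higher (0.22) and Itga8 and Itga1 (-0.19) lower.

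The list of 21 coagulation and fibrinolysis genes had 3 higher calls and 0 lower, beside 1.09% higher and 1.53% lower over all tested genes. Plau, urokinase, was at 0.30 ± 0.05 (adjusted p = 0.00514), its receptor gene Plaur at 0.31 ± 0.06 (adjusted p = 0.00516) and Nt5e, the ectonucleotidase CD73 that makes adenosine, at 0.64 ± 0.14 (adjusted p = 0.0113). Plaur held 315, 331, 474 and 399 in vehicle and 405, 519, 547 and 503 with basal S1P, higher at each number. The adenosine receptor gene Adora2a was also called higher (0.70 ± 0.11, adjusted p = 0.00228), with 82, 69, 123 and 76 in vehicle and 141, 70, 169 and 139 with basal S1P. In the list of 31 shear-responsive and vasoactive genes it stood with the mechanically gated channel gene Piezo2 (0.95) and the nitric oxide synthase gene Nos3 (0.21), and the natriuretic peptide clearance receptor gene Npr3 was the lower call (-1.01). Piezo2 was low, at 49, 57, 34 and 35 in vehicle and 133, 48, 50 and 72 with basal S1P. Its groups overlapped and replicate 2 went the other way.

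Guidance and growth factor genes gave further calls. Crmp1, a cytosolic mediator of semaphorin signalling, held 80, 87, 185 and 146 in vehicle and 183, 168, 320 and 276 with basal S1P, higher at each number (0.98 ± 0.13, adjusted p = 0.000403). Its family member Dpysl3 (0.28) and the semaphorin receptor gene Plxnb1 (0.48) were also higher, while Plxnb2 (-0.22) and Plxna4 (-0.32) were lower, 5 calls among 36 genes. In the list of 35 VEGF, angiopoietin and growth factor genes 3 were called higher and 0 lower: Spry4 (0.40), a feedback inhibitor of receptor tyrosine kinases, Angptl4 (0.27) and the EGF-family ligand gene Hbegf (0.22). The endothelial transcription factor list of 39 had 4 lower calls, with Ahr, Casz1 and Nr2f2 among them, and 0 higher.

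5 genes of amino acid and one-carbon metabolism rose with basal S1P. Of 26 tested genes of the integrated stress response and serine synthesis 20 had higher means, 5 were called higher and 0 lower, with a median of 0.20. Over all tested genes 50.0% had higher means and 1.09% were called higher. Psat1, an enzyme of serine synthesis, held 381, 415, 437 and 425 in vehicle and 474, 607, 532 and 502 with basal S1P, without overlap (0.27 ± 0.07, adjusted p = 0.0419). Shmt2 (0.25) and Mthfd2 (0.30) of the mitochondrial folate pathway, Pycr1 (0.40) of proline synthesis and the asparagine synthetase gene Asns (0.27) were the other calls. Psat1 passed in 6 of 18 alternatives to the matched fit and Asns in 5. Shmt2 held 371, 351, 473 and 428 in vehicle and 409, 521, 588 and 510 with basal S1P, higher at each number. None of these 5 genes passed against apical S1P in the matched fit, where adjusted p lay between 0.0729 and 0.677.

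Housekeeping groups moved little. All 51 nuclear genes of oxidative phosphorylation and 51 of 52 cytosolic ribosomal protein genes had higher means with basal S1P, beside 50.0% of all tested genes. Their medians were 0.16 and 0.15 in the fit of group means and 0.06 in the matched fit for both. Limma called 0 of them, with 2 and 0 genes at an unadjusted p under 0.05. Summed over 51 and 53 genes, tested or not, basal S1P replicate 2 was the highest of the 8 libraries in both lists. Its sums were 18438 and 16425 normalized counts, against 13068 to 16479 and 12080 to 15514 in the others. Of the 23 Notch, 25 Nrf2 target, 24 caveolar and 15 arterial genes limma called 0 in the matched fit, with 6, 4, 4 and 5 at an unadjusted p under 0.05.

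By size of change among genes with a mean of at least 50 and separate groups, further lower genes were Rasgef1a (-0.91), the carboxylesterase gene Ces2b (-0.76) and H2-Q5, which did not pass (-0.47, adjusted p = 0.246). Further higher genes were the aldo-keto reductase gene Akr1b8 (1.05), the immune checkpoint gene Cd276 (0.71), Shroom3 (0.61), and 2 that did not pass, Ankrd37 (0.40, adjusted p = 0.0593) and Morrbid (0.39, adjusted p = 0.0573). Akr1b8 held 74, 81, 168 and 79 in vehicle and 169, 209, 284 and 178 with basal S1P (adjusted p = 5.98e-05), so the lowest treated library lay 1 count above the highest vehicle library. It belongs to a family of similar genes.

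Other cell types were looked for by their markers. Of 10 tested smooth muscle markers Itga8 and Synpo2 were called lower. All 11 smooth muscle markers, tested or not, summed to 4398, 4215, 3456 and 2967 in vehicle replicates 1 to 4 and to 3976, 4001, 3190 and 2810 with basal S1P. The 10 microglial and macrophage markers with values, of which 2 were tested, summed to 154, 96, 43 and 54 in vehicle and to 108, 64, 40 and 42 with basal S1P. Both sums, like those of pericyte and fibroblast markers, were lower with basal S1P at every number, and their part in the results was not tested. The smooth muscle sum includes Itga8 and Synpo2. Synpo2 alone held 1033, 895, 643 and 682 in vehicle and 742, 354, 484 and 553 with basal S1P. Of the 10 tested smooth muscle markers 6 had lower means and 4 higher ones, so the sum does not stand for all of them. Limma called 0 of the 2 tested microglial and 2 neuronal or oligodendroglial markers, with 0 at an unadjusted p under 0.05. Of the 2 tested astrocyte markers Gja1, connexin 43, which endothelium also makes, was called higher (0.31 ± 0.05, adjusted p = 0.00113).

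**Figure D5:**
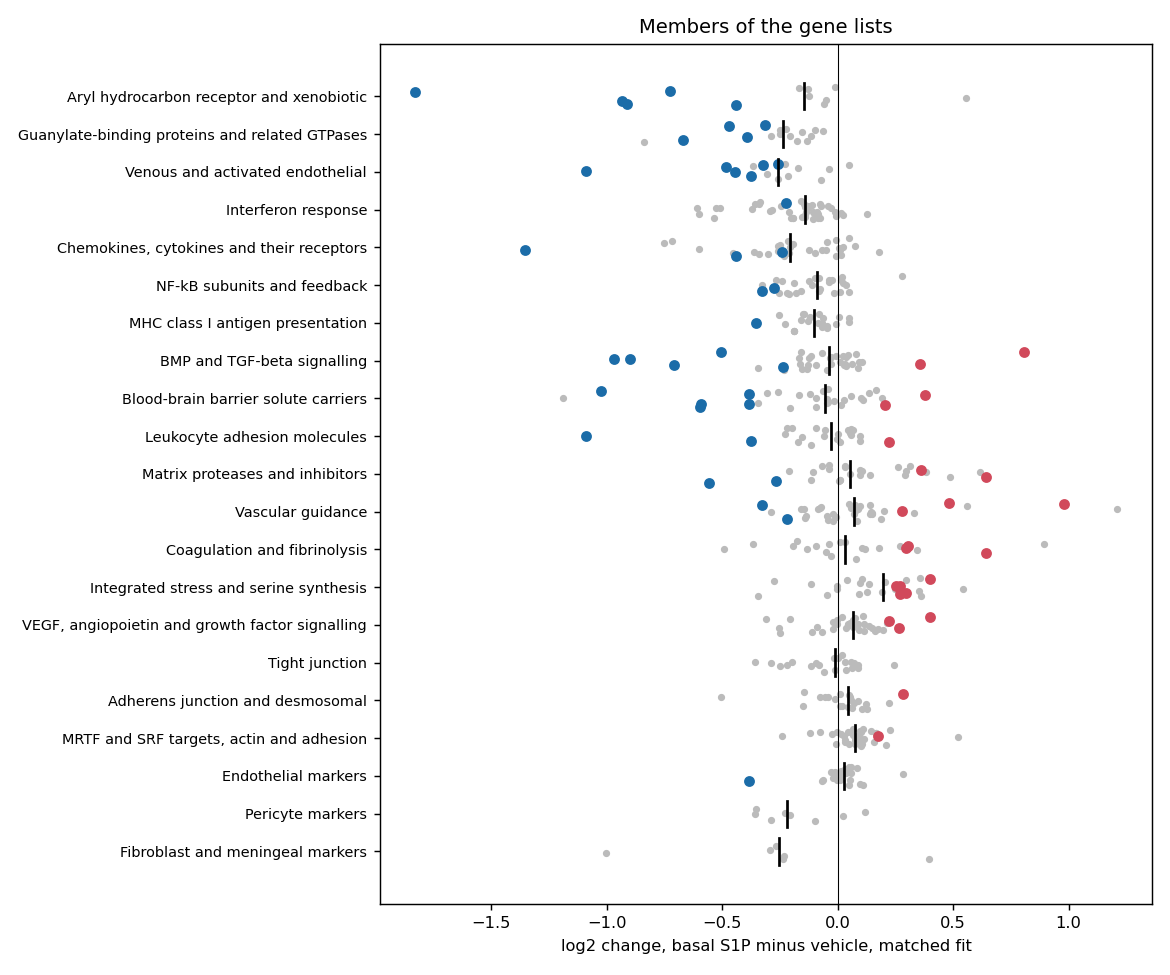
Log2 change of basal S1P against vehicle in the matched fit (x axis) for each tested member of 21 gene lists (y axis), with called members in blue (lower) or red (higher), others in grey and a black bar at the list's median. The guanylate-binding list lies left of 0, as do 14 of the 15 members of the venous list. The tight junction list holds no called member, and the BMP and solute carrier lists hold calls on both sides.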

How the data were processed

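Per the labels' protocols, RNA came from 3 inserts per sample and was made into mRNA libraries. Tools listed without role or order in the submitters' processing notes are STAR 2.7.3a, DESeq2 1.26.0, featureCounts 1.6.5 (Subread), Trimmomatic 0.38 and FastQC, with the build mm10. No strand setting is given in the sources used here. In the wild-type table the deposited values were treated as a score per gene: gene counts that the authors divided by 1 factor per library and rounded to whole numbers, as read from the values (normalized counts). The reads were not recovered, so no count model and no counting intervals are given. The knockout table was normalized separately and not used.

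Log2(value + 1) of genes with a mean of at least 10 over 20 libraries was fitted with limma 3.58.1 (R 4.3.3, mean-dependent prior variance), with Benjamini-Hochberg adjustment over 12249 genes and calls at an adjusted p under 0.05. The fits were run on simulated data with known changes put in and independent noise for each gene. There the 3 libraries to leave out were fixed beforehand, so the choice of the matched fit was not tested. The log2 scale with pseudocount 1 understates changes of low genes. The matched fit dropped 3 libraries and used the replicate number as a block; the pairing was checked by the correlation of deviations from group means, with a threshold of 0.1, which number 2 missed in the full set. This check was made after blocked fits had been seen. Alternatives were the pseudocount, the filter, the scaling, the prior, the block, the 8 libraries alone and leaving out each library.

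The text names every called gene of the group-means fit, the 15 next by p, the 8 per direction of largest change with separate groups and a mean of at least 50, up to 6 members per list of smallest p, the S1P receptors and metabolism, and marker genes; list members called in the matched fit were added after their values were seen. The members and the 52 lists were chosen with earlier results of these data known. Some genes and lists are not reported here. Promoter windows are from RefSeq (GRCm38.p6).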

Additional observations from a re-analysis of the deposited data

Results flagged for a closer look

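In 15 of 244 groups of 4 libraries examined, for the named genes in vehicle and basal S1P, 1 library lay far from the other 3, by a gap beyond Dixon's critical value; chance gives about 1 in 20. With basal S1P, replicate 2 was lowest for Ablim3 (329) and highest for Spns2 (1094) and Bmp6 (857), and it is the library that stood apart by Xist. Replicate 1 was lowest for Pmepa1 (632), Cldn5 (799) and Tnc (1978), replicate 3 lowest for Slco1a4 (492) and replicate 4 highest for Slc38a3 (364). In vehicle, replicate 3 was lowest for Particl (33), H2-T23 (196) and Adamts9 (1186) and highest for Akr1b8 (168). Vehicle replicate 1 was highest for Ahrr (143), replicate 2 lowest for Sgpl1 (588) and replicate 4 highest for Nid2 (1474).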

How the results depend on the processing

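The 3 calls of the fit of group means became 0 on only the 8 libraries compared, and 2 to 4 when 1 library was left out. With the replicate number as a block they became 47 over all 20 libraries and 10 over 8, and number 2 did not pair there. All 47 were among the 322, and they included Ahr, Ahrr, Gbp5, Gbp3, Selp, Icam1, Enpp2, Acer2, Ano1, Tnc and Crmp1. Basal against apical S1P also had 3 calls, which became 1 on the 8 libraries alone, 83 and 0 with the block over 20 and over 8 libraries, and 1 to 3 with 1 library left out: 1 without S1P apical replicate 2 or 3, and 1 without S1P basal replicate 1 or 3. The 322 calls of the matched fit became 153 with a constant prior, 173 on only the 6 libraries of numbers 1, 3 and 4, 518 without agonist apical replicate 2 too, 3 without the block, 47 with the block over all 20 libraries and 112 to 274 with 1 library left out; other settings gave 244 to 337. Causes were not tested, beyond fewer libraries.

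Signs turned for few genes, all near 0. With 1 library left out of the fit of group means the log2 change ran from -0.0696 to 0.1777 for S1pr2, -0.116 to 0.0702 for S1pr4, -0.0584 to 0.0653 for Id1, -0.1267 to 0.029 for Id3, -0.0828 to 0.0253 for Ocln and -0.0405 to 0.0094 for Tjp1. In the matched fit quantile normalization gave -0.0211 for S1pr1, -0.0221 for Slc2a1 and -0.0147 for Cdh5, and S1pr2 was at 0.0084 without the block and 0.0245 with the block over all 20 libraries. With 1 library left out it ran from -0.1744 to 0.027 for S1pr2, -0.0064 to 0.0488 for Slc2a1, -0.0829 to 0.0349 for Id1, -0.0036 to 0.0677 for Cldn5 and -0.0386 to 0.0018 for Tjp1. Of 122 named genes 116 kept their sign in every alternative to the fit of group means and 115 in those to the matched fit. The depth in reads is unknown, and with 3 or 4 libraries a group small changes of low genes such as S1pr3 could not be seen.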

Other observations

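Calls in the matched fit also fell in gene lists not described above. Mcm2, a subunit of the replicative helicase, held 732, 776, 665 and 632 normalized counts in vehicle and 884, 881, 768 and 814 with basal S1P (0.26 ± 0.05 on the log2 scale, limma adjusted p = 0.0130). It was the only call among 40 cell cycle genes, a share near the 2.63% over all tested genes. Of 21 immediate early genes Fosl1, a subunit of AP-1, was called higher (0.45 ± 0.08, adjusted p = 0.00567) and Ier3 lower (-0.25 ± 0.07, adjusted p = 0.0454). The ATP and ADP receptor gene P2ry1 held 209, 237, 253 and 255 in vehicle and 256, 275, 298 and 329 with basal S1P, without overlap (0.29 ± 0.06, adjusted p = 0.0164). Pfkp of glycolysis was called higher (0.23 ± 0.06), while the stress sensor gene Ern1 (-0.18 ± 0.04), the stress-induced Gadd45b (-0.32 ± 0.08) and Mylip (-0.53 ± 0.12), which directs breakdown of the LDL receptor, were called lower. Ier3, Pfkp, Ern1 and Gadd45b passed in 7 or 8 of 18 alternatives to the matched fit.

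Further genes with small p in the matched fit lay outside the lists and were chosen after their values were seen. Galnt15, a glycosyltransferase gene, held 795, 738, 538 and 862 in vehicle and 458, 212, 397 and 555 with basal S1P (-0.62 ± 0.07, adjusted p = 0.000135). The tropomodulin gene Tmod2 held 1003, 940, 1169 and 1054 in vehicle and 767, 844, 925 and 818 with basal S1P, without overlap (-0.34 ± 0.05, adjusted p = 0.000563). The orphan receptor gene Gprc5b held 728, 724, 948 and 1095 in vehicle and 1050, 744, 1118 and 1502 with basal S1P, higher at each number (0.40 ± 0.06, adjusted p = 0.00117).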
